A study of Mus musculus with 6 samples.

Results

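The 30 genes described here encode enzymes and regulators of cholesterol and fatty acid synthesis, and were taken by their listed gene symbols from the 24062 genes counted in 6 RNA-seq libraries. All 30 had a row in every library, and all 30 were among the 13185 genes with counts high enough to be tested. The study, whose title names SPT6, NSD2 and interferon-stimulated transcription, used NIH3T3, an immortalised mouse embryo fibroblast line, grown in medium with 10% donor bovine serum. SPT6 (gene Supt6) is a histone chaperone that travels with elongating RNA polymerase II. Every culture was transfected by lipofection with either a negative control (NC) siRNA or a single siRNA against SPT6, and these are called control cells and knockdown cells below. The untreated groups had 1 library per siRNA and received no interferon, labelled 0 h. The IFN-beta groups had 2 libraries per siRNA, numbered 1 and 2, from cells given mouse recombinant IFN-beta at 100 units/ml for 4 h, starting 48 h after transfection. No library from cells kept for those 4 h without IFN-beta was analysed here, so time in culture and IFN-beta cannot be told apart in the IFN-beta responses below. The labels do not say whether the libraries numbered 1 and 2 came from separate cultures, so the spread behind each p-value is that of these libraries and may be technical.

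Cholesterol is built from acetyl-CoA through mevalonate and farnesyl pyrophosphate to squalene, which is cyclised to lanosterol and then trimmed to cholesterol. Fatty acid synthesis starts from the same acetyl-CoA, made from citrate or acetate, and ends in palmitate, which is elongated and desaturated. Most of these enzymes are targets of the SREBP transcription factors, which are held in the endoplasmic reticulum by SCAP and INSIG proteins when sterols are plentiful and are cut and released to the nucleus when sterols run low. In cultured fibroblasts the serum supplies cholesterol as lipoprotein, and cells deprived of it are known to raise these mRNAs.

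Libraries held 7935961 to 17596498 counts in genes, and in each pair of libraries with the same treatment and label number the knockdown library was the shallower one. Levels are given as CPM, counts relative to library sizes scaled by the trimmed mean of M values (TMM). The targeted gene, Supt6, stood at 175 CPM in the untreated control library and 101 CPM in knockdown cells. In IFN-beta treated cells it stood at 177 and 189 CPM in control cells and at 108 and 88.4 CPM in knockdown cells, a ratio of 0.537. Fibroblast markers (Col1a1, Col1a2, Vim, Pdgfrb, Thy1) were abundant, with summed levels of 8584 to 9889 CPM in control cells and 5346 to 7423 CPM in knockdown cells. All 5 of them were lower in knockdown cells in the untreated pair and in both IFN-beta pairs, against 28.3% of all genes tested. The 6 adipocyte markers summed to 1.13 to 2.94 CPM, with Adipoq at no more than 0.151 CPM. The 5 macrophage markers summed to 3.68 to 5.8 CPM in control cells and 9.59 to 13.2 CPM in knockdown cells. Of these sums, Cd68 made up 2.2 to 2.71 CPM in control cells and 6.47 to 9.92 CPM in knockdown cells. Hepatocyte and epithelial markers summed to at most 0.204 and 0.957 CPM. Of these, Ttr and Epcam were at 0 counts in all 6 libraries, and Cdh1 was the highest, at up to 0.839 CPM.

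All of the 30 genes were expressed in every library. Divided by the exon length of each gene in kilobases and averaged over the 6 libraries, the highest level was that of Scd2, a stearoyl-CoA desaturase, at 370 CPM per kb. It was followed by the ATP citrate lyase Acly at 161, the lanosterol demethylase Cyp51 at 126, Insig1 at 118, the HMG-CoA synthase Hmgcs1 at 117 and the farnesyl pyrophosphate synthase Fdps at 108 CPM per kb. The lowest levels were those of Dhcr7, the last reductase of cholesterol synthesis, at 5.88, the sterol reductase Tm7sf2 at 4.22 and the acetyl-CoA synthetase Acss2 at 3.83 CPM per kb. Neighbours within each of these runs had overlapping ranges over the 6 libraries on the per kb scale, so their order is not firm. The exon length is the union over all annotated transcripts, so it understates the level of a gene such as Lss, whose union of 10.8 kb includes long transcripts. The 30 genes together took between 0.614% and 1.21% of the counts in genes.

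The promoters of 4 of the 30 genes are shown: Hmgcs1 and Mvk from the mevalonate arm, Nsdhl from the sterol arm, and Lpin1. Lpin1 was the 1 gene of the 30 that stood higher in knockdown cells in every pair. Any link between these sequences and the levels of the genes was not tested. The sequences are RefSeq windows of 300 bases, from 250 bases before to 50 bases after the annotated start, on build GRCm38.p6, 5′ to 3′ on the gene's strand. The windows are chr13:119690101-119690400 on the plus strand for Hmgcs1, chr5:114444019-114444318 on the plus strand for Mvk, chrX:72918271-72918570 on the plus strand for Nsdhl and chr12:16610917-16611216 on the minus strand for Lpin1. Capitals mark CCAAT on either strand (ATTGG where it lies on the other strand), the core bound by NF-Y, and TCACNCCAC, a consensus of the sterol regulatory element bound by SREBPs.
Hmgcs1: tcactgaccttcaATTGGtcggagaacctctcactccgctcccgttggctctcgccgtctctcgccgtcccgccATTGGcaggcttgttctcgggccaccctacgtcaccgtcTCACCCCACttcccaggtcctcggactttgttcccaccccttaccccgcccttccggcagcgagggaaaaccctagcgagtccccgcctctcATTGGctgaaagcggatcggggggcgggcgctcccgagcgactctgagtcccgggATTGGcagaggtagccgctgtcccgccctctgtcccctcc
Mvk: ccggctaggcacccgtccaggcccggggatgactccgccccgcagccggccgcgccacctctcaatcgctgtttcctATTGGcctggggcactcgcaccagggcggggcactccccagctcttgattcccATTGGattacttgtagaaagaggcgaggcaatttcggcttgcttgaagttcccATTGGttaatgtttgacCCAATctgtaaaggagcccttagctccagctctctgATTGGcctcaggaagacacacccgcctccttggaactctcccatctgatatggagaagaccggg
Nsdhl: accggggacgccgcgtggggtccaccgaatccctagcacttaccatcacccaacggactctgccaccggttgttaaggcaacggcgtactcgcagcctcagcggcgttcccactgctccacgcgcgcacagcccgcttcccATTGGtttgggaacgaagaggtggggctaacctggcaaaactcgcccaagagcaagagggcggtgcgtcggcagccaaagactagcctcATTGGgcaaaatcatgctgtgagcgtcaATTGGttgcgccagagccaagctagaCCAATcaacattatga
Lpin1: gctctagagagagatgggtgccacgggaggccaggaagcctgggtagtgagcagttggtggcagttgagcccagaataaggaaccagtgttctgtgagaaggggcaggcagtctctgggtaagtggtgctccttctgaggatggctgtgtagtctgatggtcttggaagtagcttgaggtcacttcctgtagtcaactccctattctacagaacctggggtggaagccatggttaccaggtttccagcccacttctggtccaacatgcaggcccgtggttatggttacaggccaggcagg

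The Hmgcs1 window held TCACCCCAC with its first base at position -137, counting back from the annotated start, and 4 matches to CCAAT, the first of them at -237. The Mvk window held 5 matches to CCAAT, all before the start, and the Nsdhl window held 4, the closest upstream one at -20. The Lpin1 window held no match to either motif, and none of the marked matches overlapped another. Of the 30 genes, 24 had promoter windows in the table used, 29 windows in all. Sqle, Fdft1, Fdps, Stard4, Scd1 and Scd2 had none. CCAAT was present on either strand in 21 of the 29 windows (72.4%), which covered 20 genes, against 37.4% of all 32851 windows. GGGCGG, the core bound by the Sp1 family, was present in 21 of 29 windows (72.4%, 19 genes), against 35.7% of all windows. TCACNCCAC was found in 1 window, that of Hmgcs1 (3.45%), against 1.24% of all windows. The E-box CACGTG was found in 4 windows (13.8%: Dhcr7, Hsd17b7, Insig1 and Sc5d), against 7.15% of all windows. The members' windows had a median GC content of 62.3%, against 52.7% over all windows, and the part of base composition in these shares was not tested. The windows of Acaca and Elovl6, like that of Lpin1, held none of the 4 motifs. The only Acaca window (chr11:84195188-84195487) lay inside the gene, whose annotated position begins at 84129672 on the plus strand. It therefore does not cover that start. The only Tm7sf2 window (chr19:6067801-6068100), which held CCAAT and GGGCGG, also lay inside its gene. That gene is on the minus strand, with its annotated start at 6068373. A match is a run of letters in this window and does not show that a factor binds there.

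In knockdown cells, 27 of the 30 genes stood lower than in control cells in the untreated pair and in both IFN-beta pairs, against 28.3% of all 13185 genes tested. The genes were chosen with earlier results of these data known, so the share of all genes is a description and not a test. Only Lpin1 stood higher in all 3 pairs, against 25.8% of all genes, while Ebp and Insig1 differed in sign between pairs. The median log2 difference over the 30 genes was -0.41 in the untreated pair, -0.39 in the IFN-beta pair numbered 1 and -0.53 in the pair numbered 2, where the medians over all genes were -0.02, 0 and -0.03. Summed over the 30 genes, the level was 11868 CPM in control cells and 9045 CPM in knockdown cells in the untreated pair, a ratio of 0.762. The sums were 11187 and 8455 CPM in the IFN-beta pair numbered 1 (ratio 0.756), and 8586 and 5973 CPM in the pair numbered 2 (ratio 0.696). In bulk RNA, fewer cells making a transcript and less of it per cell cannot be told apart. The fibroblast markers also stood lower in knockdown cells in all 3 pairs, and their part in the result was not tested.

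**Figure D1:**
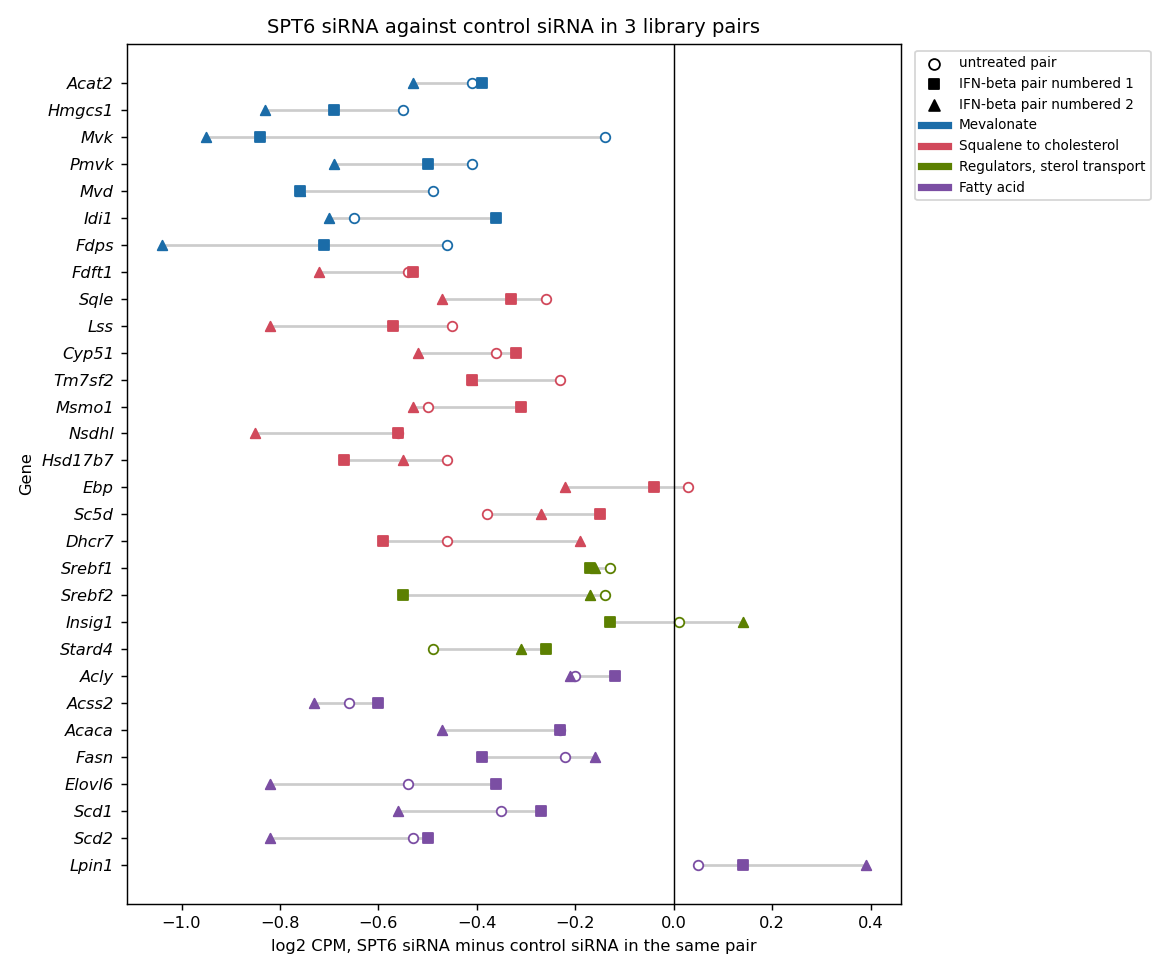
Log2 CPM in knockdown cells minus log2 CPM in control cells (horizontal axis, prior count of 2) for each of the 30 genes in the untreated pair (open circles) and the IFN-beta pairs numbered 1 (squares) and 2 (triangles), coloured by role. For 27 genes all 3 symbols lie left of 0, Lpin1 lies right of 0, and Ebp and Insig1 have symbols on both sides.

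In the model over all 6 libraries, none of the 30 genes passed an adjusted p of 0.05 for SPT6 siRNA against control siRNA with IFN-beta (edgeR quasi-likelihood test, Benjamini-Hochberg over all genes tested), and 0% of the 13185 genes did. At an unadjusted p under 0.05, 5 of the 30 were lower (Mvk, Fdps, Elovl6, Nsdhl and Lss), against 4.31% of all genes, and 0 were higher, against 7.36%. DESeq2 also gave 0 genes of the 30 past the adjusted threshold, with 10 lower, against 3.15% of all genes, and 0 higher, against 4.16%, at an unadjusted p under 0.05. Both IFN-beta knockdown libraries lay below both control libraries for 12 of the 30 genes, against 21.3% of all genes, and above them for 0, against 22.7%. The median log2 difference of the 30 was -0.43, against -0.02 over all genes, and 29 of the 30 values were below 0, against 52% of all genes. The count of 5 rested on single libraries. It was 1 without control library 1 (against 3.93% of all genes) and 1 without knockdown library 2 (2.47%), but 10 without control library 2 (2.02%) and 18 without knockdown library 1 (4.96%). The median then ranged from -0.79 to -0.25.

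**Figure D2:**
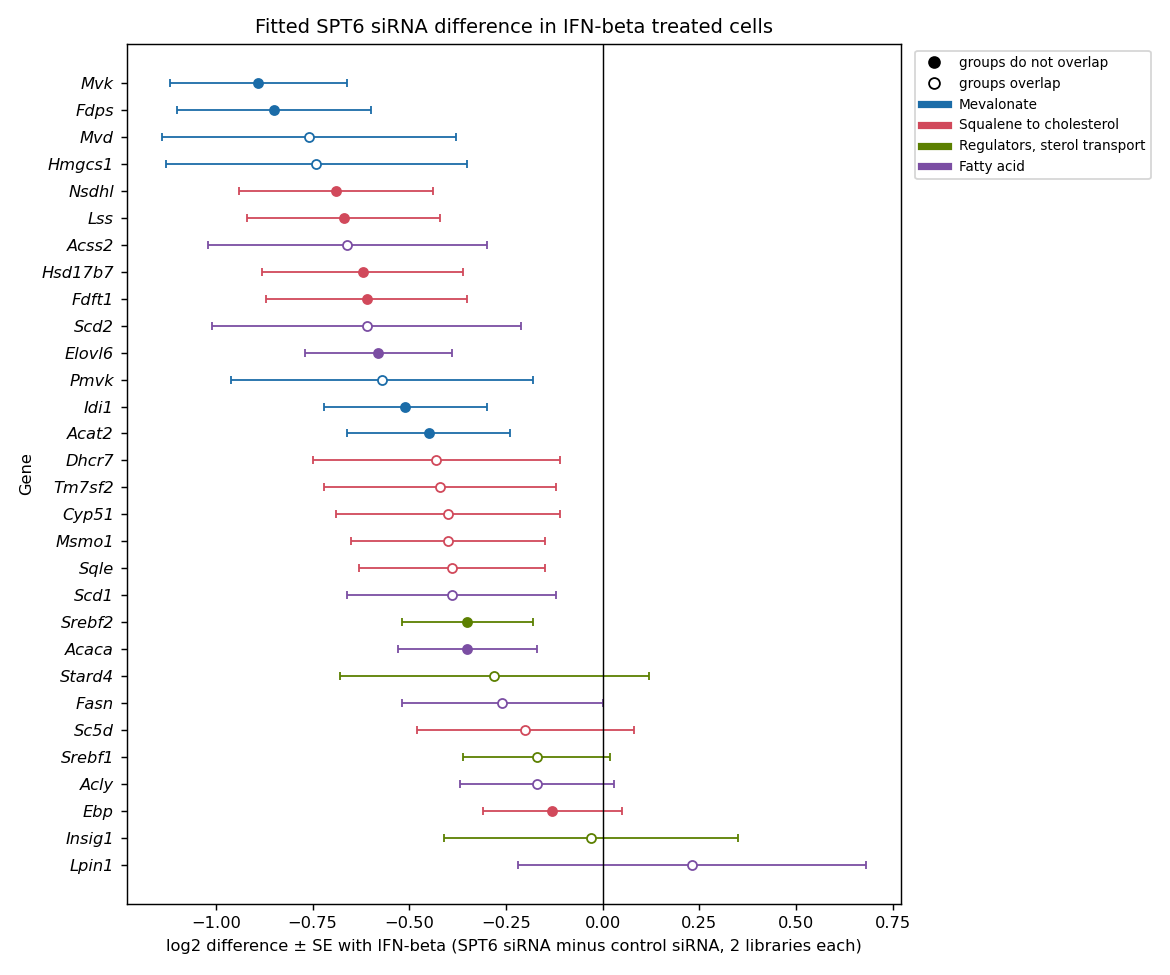
Fitted log2 difference ± SE (edgeR) between SPT6 siRNA and control siRNA in IFN-beta treated cells, 2 libraries each, for the 30 genes in order of size. Filled circles are the 12 genes whose groups did not overlap. Mvk (-0.89) and Fdps (-0.85) lie farthest left, and the bars of Insig1 and Lpin1 are among those that cross 0.

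The mevalonate arm, the stretch from acetoacetyl-CoA to farnesyl pyrophosphate, had the lowest median log2 difference of the 4 roles. All 7 of its genes stood lower in knockdown cells in every pair, against 28.3% of all genes. The median log2 difference with IFN-beta was -0.74. Both IFN-beta knockdown libraries lay below both control libraries for 4 of the 7, against 21.3% of all genes. Mvk, the mevalonate kinase (chr5:114444269-114460591, plus strand), was at 74.7 CPM in control cells and 67.9 CPM in knockdown cells without IFN-beta. Under IFN-beta the values were 69.9 and 55.9 CPM in control cells (62.9 ± 9.87, SD, n = 2) and 39 and 28.9 CPM in knockdown cells (34 ± 7.19, SD, n = 2). The 4 IFN-beta libraries did not overlap between siRNAs, and both knockdown libraries lay below every other library. The log2 difference was -0.89 ± 0.23 (SE; edgeR adjusted p = 0.317). Fdps, which makes farnesyl pyrophosphate (chr3:89093588-89101959, minus strand), was at 585 CPM in control cells and 425 CPM in knockdown cells without IFN-beta. The IFN-beta libraries were at 603 and 505 CPM in control cells and at 369 and 246 CPM in knockdown cells. All 3 control libraries lay above all 3 knockdown libraries, and the difference with IFN-beta was -0.85 ± 0.25 on the log2 scale (edgeR adjusted p = 0.349).

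Hmgcs1, which condenses acetyl-CoA and acetoacetyl-CoA to HMG-CoA (chr13:119690379-119708260, plus strand), was at 764 CPM in control cells and 521 CPM in knockdown cells without IFN-beta. After IFN-beta it stood at 770 and 445 CPM in control cells (608 ± 230, SD, n = 2) and at 478 and 250 CPM in knockdown cells (364 ± 161, SD, n = 2). The groups overlapped, since control library 2 lay below knockdown library 1, and the log2 difference of -0.74 ± 0.39 did not pass the test (edgeR adjusted p = 0.51). Within each pair the knockdown library was lower, with log2 differences of -0.55 (untreated), -0.69 and -0.83. Mvd, the mevalonate diphosphate decarboxylase, showed the same arrangement, with 98.9 and 55.2 CPM in control cells and 58.3 and 32.4 CPM in knockdown cells under IFN-beta (-0.76 ± 0.38, edgeR adjusted p = 0.495). Pmvk, the phosphomevalonate kinase, was at 81.5 and 48.1 CPM against 57.8 and 29.7 CPM, again with overlapping groups. Idi1, the isopentenyl diphosphate isomerase, was at 423 CPM in control cells and 269 CPM in knockdown cells without IFN-beta, 1 of 2 genes of the 30 past 1.5-fold in that pair. The IFN-beta values were 401 and 365 CPM against 313 and 224 CPM (log2 difference -0.51 ± 0.21). Acat2, the acetoacetyl-CoA thiolase, was at 280 and 228 CPM against 213 and 158 CPM, with groups that did not overlap (-0.45 ± 0.21). Exons of Hmgcs1, Fdps and Idi1, and of Fdft1, Lss, Cyp51, Tm7sf2, Srebf1, Acss2, Elovl6 and Scd2 below, overlap other annotated genes on one strand or the other, and the sources used here do not say whether reads were counted by strand, so reads of such partners cannot be told apart.

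All 11 genes of the arm from squalene to cholesterol had a fitted log2 difference below 0 with IFN-beta, against 52% of all genes. The median was -0.42, and 10 of the 11 stood lower in knockdown cells in every pair, against 28.3% of all genes. Nsdhl, a sterol dehydrogenase of the demethylation steps (chrX:72918557-72958514, plus strand), was at 192 and 130 CPM in the untreated pair. Given IFN-beta, it was at 193 and 153 CPM in control cells and at 130 and 84.5 CPM in knockdown cells, so no knockdown library reached any control library. Its log2 difference was -0.69 ± 0.25 (edgeR adjusted p = 0.383). Lss, the lanosterol synthase (chr10:76531588-76557138, plus strand), was at 238 and 174 CPM in the untreated pair, and with IFN-beta at 222 and 172 CPM in control cells and 149 and 97.7 CPM in knockdown cells. Its groups under IFN-beta did not overlap, and the difference was -0.67 ± 0.25 (edgeR adjusted p = 0.388). Hsd17b7, which reduces the sterol ketone, was at 179 and 117 CPM against 113 and 80.3 CPM (-0.62 ± 0.26). Fdft1, the squalene synthase, was at 210 and 156 CPM against 145 and 94.6 CPM (-0.61 ± 0.26). Both had groups that did not overlap.

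The remaining sterol enzymes had smaller differences and overlapping groups with IFN-beta, apart from Ebp. Sqle, the squalene epoxidase, was at 456 and 357 CPM in control cells and 363 and 257 CPM in knockdown cells, and Cyp51 at 728 and 514 CPM against 582 and 359 CPM. Msmo1, the methylsterol oxidase, was at 385 and 295 CPM against 310 and 204 CPM, and Tm7sf2 at 21.8 and 14.4 CPM against 16.3 and 10.8 CPM. In these 4 genes, as in Hmgcs1, control library 2 lay below knockdown library 1. Sc5d, the lathosterol desaturase, was at 147 and 101 CPM against 133 and 83.9 CPM, and Dhcr7 at 37.6 and 21 CPM against 25 and 18.4 CPM. The fitted log2 differences of these 6 genes ran from -0.43 in Dhcr7 to -0.20 in Sc5d. Ebp, the sterol isomerase between the demethylation steps and the final reductions, was nearly level, at 36.4 CPM in control cells and 37.3 CPM in knockdown cells without IFN-beta. IFN-beta treated cells had 38.3 and 39.2 CPM against 37.2 and 33.6 CPM (-0.13 ± 0.18, edgeR adjusted p = 0.805), the smallest difference among the 11 sterol enzymes.

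**Figure D3:**
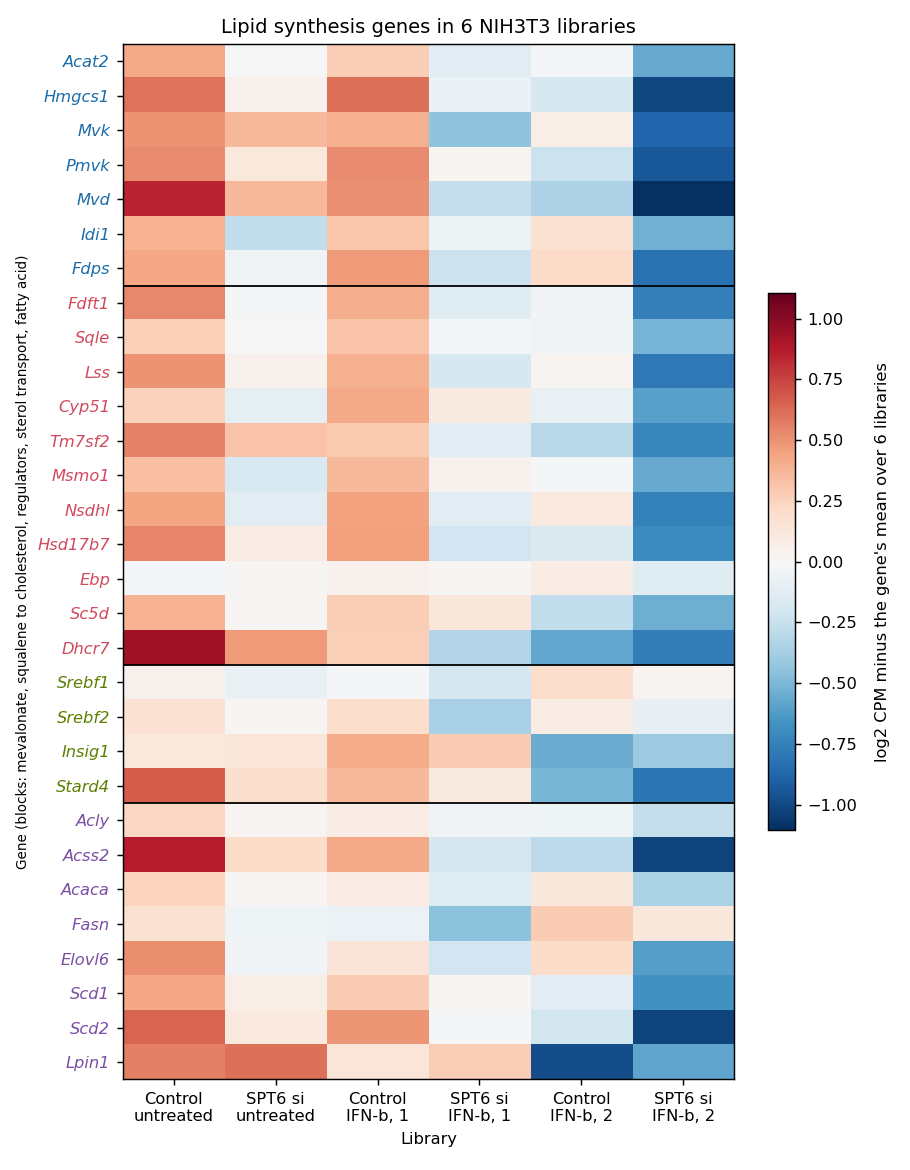
Log2 CPM of each of the 30 genes minus the gene's own mean over the 6 libraries, with genes in rows by role and libraries in columns. In most rows the untreated control library and IFN-beta control library 1 are above the mean, and IFN-beta knockdown library 2 is the lowest. In Srebf1, Srebf2, Insig1, Fasn and Lpin1 another library is the lowest.

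Among the regulators, Srebf2 and Srebf1 encode the SREBP factors themselves, SREBP2 for sterol enzymes and SREBP1 for fatty acid enzymes. Srebf2 was at 213 and 193 CPM in the untreated pair, and with IFN-beta at 218 and 202 CPM in control cells and 149 and 179 CPM in knockdown cells. The groups under IFN-beta did not overlap, with a log2 difference of -0.35 ± 0.17 (edgeR adjusted p = 0.481), and here knockdown library 1, not 2, was the lowest. Srebf1 ran only from 42.2 to 55.1 CPM over all 6 libraries (-0.17 ± 0.19). Insig1, which retains SCAP in the endoplasmic reticulum and is itself a SREBP target, was at 385 and 389 CPM in the untreated pair. Under IFN-beta the values were 472 and 243 CPM in control cells and 431 and 268 CPM in knockdown cells, a log2 difference of -0.03 ± 0.38. Its level followed the library number rather than the siRNA. Stard4, a carrier of cholesterol in the cytosol, was at 106 and 75.3 CPM in the untreated pair, and under IFN-beta at 85.5 and 47 CPM in control cells and 71.2 and 38 CPM in knockdown cells. It stood lower in all 3 pairs, and its groups with IFN-beta overlapped (-0.28 ± 0.40).

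Of the 8 genes listed for the fatty acid arm, 7 stood lower in knockdown cells in every pair, against 28.3% of all genes. The exception was Lpin1, a phosphatidate phosphatase. The median log2 difference with IFN-beta was -0.37. Elovl6, which elongates palmitate (chr3:129532355-129638495, plus strand), was at 296 and 204 CPM in the untreated pair. The IFN-beta libraries were at 229 and 239 CPM in control cells (234 ± 7.07, SD, n = 2) and at 179 and 136 CPM in knockdown cells (157 ± 30.2, SD, n = 2). All 3 control libraries lay above all 3 knockdown libraries, and the log2 difference was -0.58 ± 0.19 (edgeR adjusted p = 0.373). Acaca, the acetyl-CoA carboxylase that makes malonyl-CoA, was at 415 and 425 CPM in control cells and at 354 and 306 CPM in knockdown cells, also without overlap (-0.35 ± 0.18). Scd2, the most abundant of the 30, was at 2959 CPM in control cells and 2049 CPM in knockdown cells without IFN-beta. After IFN-beta it stood at 2663 and 1649 CPM against 1883 and 934 CPM, so that its groups overlapped (-0.61 ± 0.40, edgeR adjusted p = 0.581). Its close paralog Scd1 was at 443 and 336 CPM against 366 and 228 CPM (-0.39 ± 0.27), and the counts of either may miss or misplace reads shared by both.

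Acss2, which makes acetyl-CoA from acetate, had the largest difference of the 30 genes in the untreated pair, at 65.6 CPM in control cells and 41.4 CPM in knockdown cells. It was the other of the 2 genes past 1.5-fold lower there, against 6.89% of all genes, and 0 were past 1.5-fold higher, against 8.84%. The untreated pair has 1 library per siRNA and therefore no replicate check. With IFN-beta, Acss2 was at 48.1 and 29.3 CPM in control cells and 31.6 and 17.6 CPM in knockdown cells (-0.66 ± 0.36, edgeR adjusted p = 0.519). Acly was at 898 and 819 CPM against 824 and 706 CPM, and Fasn, the fatty acid synthase, at 684 and 870 CPM against 522 and 779 CPM. In both genes the groups overlapped, with log2 differences of -0.17 ± 0.20 and -0.26 ± 0.26. Lpin1, a phosphatidate phosphatase that also acts in the nucleus, stood apart in direction, at 84.9 CPM in control cells and 87.9 CPM in knockdown cells without IFN-beta. The IFN-beta values were 63 and 29.1 CPM in control cells and 69.4 and 38.4 CPM in knockdown cells, with overlapping groups (0.23 ± 0.45, edgeR adjusted p = 0.873).

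The second question the libraries bear on is whether IFN-beta, over 4 h, changed these genes. The IFN-beta libraries used here are also those of the siRNA comparison above, and each siRNA has only 1 untreated library, which the fit assumes to vary like the replicated groups. In control cells, no gene of the 30 passed an adjusted p of 0.05 (edgeR), against 0.137% of all genes. At an unadjusted p under 0.05, 1 was lower (Dhcr7), against 2.94%, and 0 were higher, against 5.29%. Both IFN-beta libraries lay below the untreated one for 18 genes, against 38.1% of all genes, and above it for 1 (Ebp), against 35.2%. In knockdown cells, again none passed (edgeR), against 0.0455% of all genes. There, 2 were lower at an unadjusted p under 0.05 (Dhcr7 and Mvk), against 2.01%, and 0 were higher, against 3.84%. Both IFN-beta libraries lay below the untreated one for 22 genes, against 34.6% of all genes, and above it for 0, against 34.5%. DESeq2 gave 0 past the adjusted threshold in both responses, with 1 and 3 lower at an unadjusted p under 0.05, against 1.04% and 0.781% of all genes. The median log2 response of the 30 genes was -0.28 in control cells and -0.37 in knockdown cells, where the medians over all genes were -0.01 and 0. Scaling by library size alone moved the median over all genes to -0.10 in control cells, and the 18 genes without overlap to 25, while the share of all genes went from 38.1% to 47.6%.

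The responses rested largely on the libraries numbered 2. In control cells, the median log2 difference from the untreated library was -0.11 for library 1 and -0.46 for library 2, and in knockdown cells it was -0.13 and -0.68. Without control library 1, the count of genes lower at an unadjusted p under 0.05 was 5 in control cells, against 4.17% of all genes, and without control library 2 it was 0, against 0.755%. In knockdown cells it was 11 without library 1, against 3.55%, and 1 without library 2, against 0.968%, and the median was -0.69 and -0.14. Dhcr7, which reduces 7-dehydrocholesterol to cholesterol (chr7:143823145-143848410, plus strand), had the lowest fitted response of the 30 with both siRNAs. It was at 59.7 CPM in the untreated control library and at 37.6 and 21 CPM in the IFN-beta control libraries (log2 difference -1.03 ± 0.37, edgeR adjusted p = 0.553). In knockdown cells the untreated library was at 43.5 CPM and the IFN-beta libraries at 25 and 18.4 CPM (-1.01 ± 0.38, edgeR adjusted p = 0.816). The response of Mvk was -0.25 ± 0.27 in control cells and -1 ± 0.27 in knockdown cells, where the IFN-beta libraries lay at 39 and 28.9 CPM and the untreated one at 67.9 CPM (edgeR adjusted p = 0.651).

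**Figure D4:**
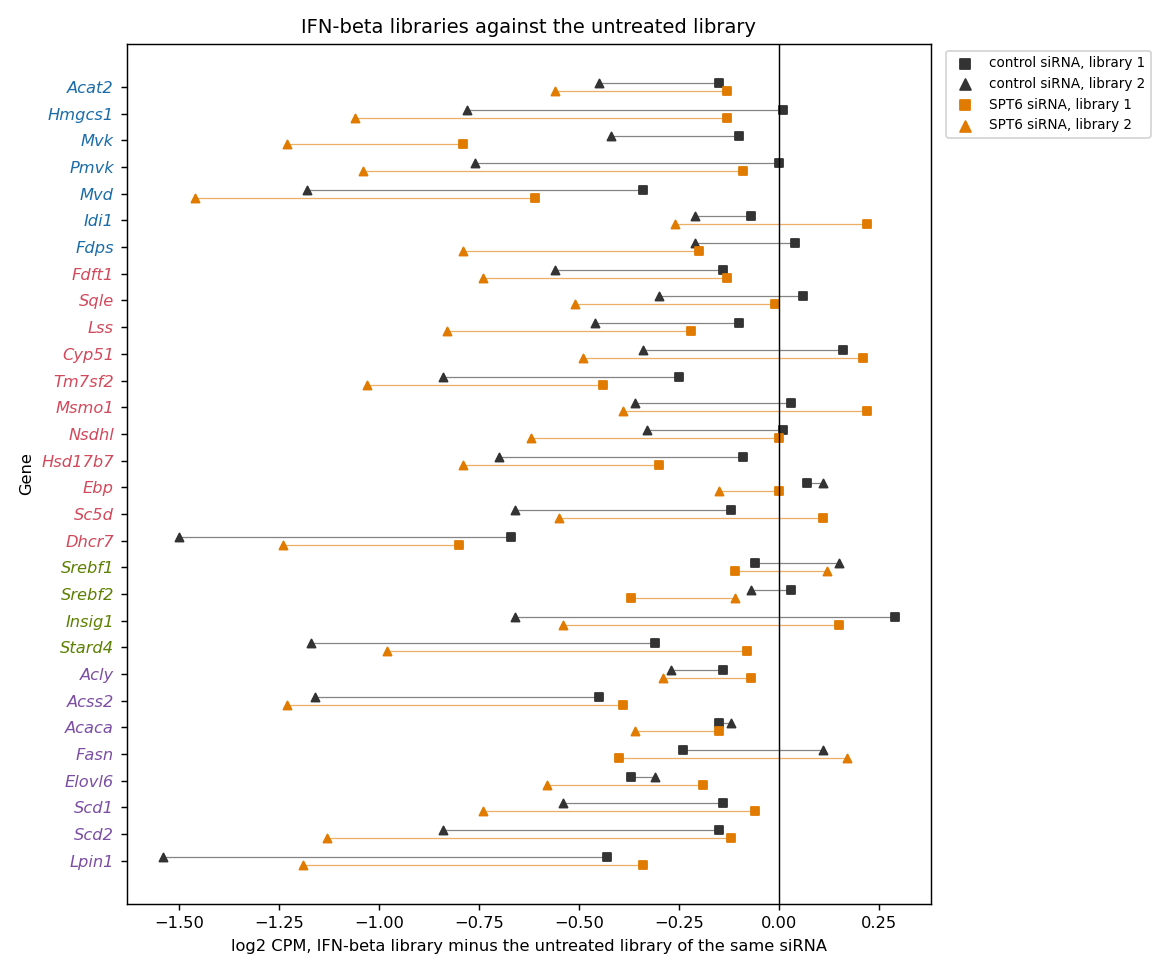
Log2 CPM of each IFN-beta library minus that of the untreated library with the same siRNA, for the 30 genes (control siRNA in black, SPT6 siRNA in orange, squares for library 1 and triangles for library 2). Triangles lie left of squares in most rows. Dhcr7, Mvd, Acss2 and Lpin1 are among the genes with all 4 symbols left of 0.

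Other genes had low but uncertain responses with both siRNAs. Lpin1 was at -0.88 ± 0.53 in control cells and -0.71 ± 0.54 in knockdown cells on the log2 scale, Acss2 at -0.76 ± 0.42 and -0.75 ± 0.43, and Mvd at -0.70 ± 0.45 and -0.98 ± 0.45. Stard4 was at -0.68 ± 0.48 and -0.47 ± 0.49. At the other end lay Idi1 (-0.14 ± 0.26 and 0 ± 0.26), Cyp51 (-0.07 ± 0.36 and -0.10 ± 0.36), Srebf1 (0.05 ± 0.23 and 0.01 ± 0.23) and Fasn (-0.05 ± 0.32 and -0.09 ± 0.32), with errors larger than the values. The difference of the responses between siRNAs, tested as an interaction, passed for no gene of the 30 at an adjusted p of 0.05 (edgeR) and for 0% of all genes. At an unadjusted p under 0.05 it was 0 lower, against 0.0834% of all genes, and 0 higher, against 0.296%, and DESeq2 also gave 0 in each case. The lowest value was that of Mvk, at -0.75 ± 0.39 (edgeR adjusted p = 1). The median over the 30 was -0.06, and it moved between -0.43 without knockdown library 1 and 0.19 without control library 1. With 1 untreated library per siRNA, the errors of this difference were 0.30 to 0.77 on the log2 scale.

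The libraries numbered 2 stood below those numbered 1 in both siRNA groups for 24 of the 30 genes, against 33.1% of all genes, and above them in both for 2 (Fasn and Srebf1), against 35%. The median log2 difference between the libraries of a group was -0.39 in control cells and -0.60 in knockdown cells, where the medians over all genes were 0.02 and 0. These medians were similar in size to those between siRNAs within a pair. The summed level of library 2 was 0.767 of that of library 1 in control cells and 0.706 in knockdown cells. Among the genes far apart were Lpin1 (-1.11 and -0.85), Insig1 (-0.96 and -0.69), Stard4 (-0.86 and -0.90), Mvd (-0.84 and -0.84), Hmgcs1 (-0.79 and -0.94) and Scd2 (-0.69 and -1.01). Fasn differed in the opposite direction, by 0.35 and 0.58, and Srebf1 by 0.21 and 0.22. The labels name no batch, date or culture for these numbers.

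**Figure D5:**
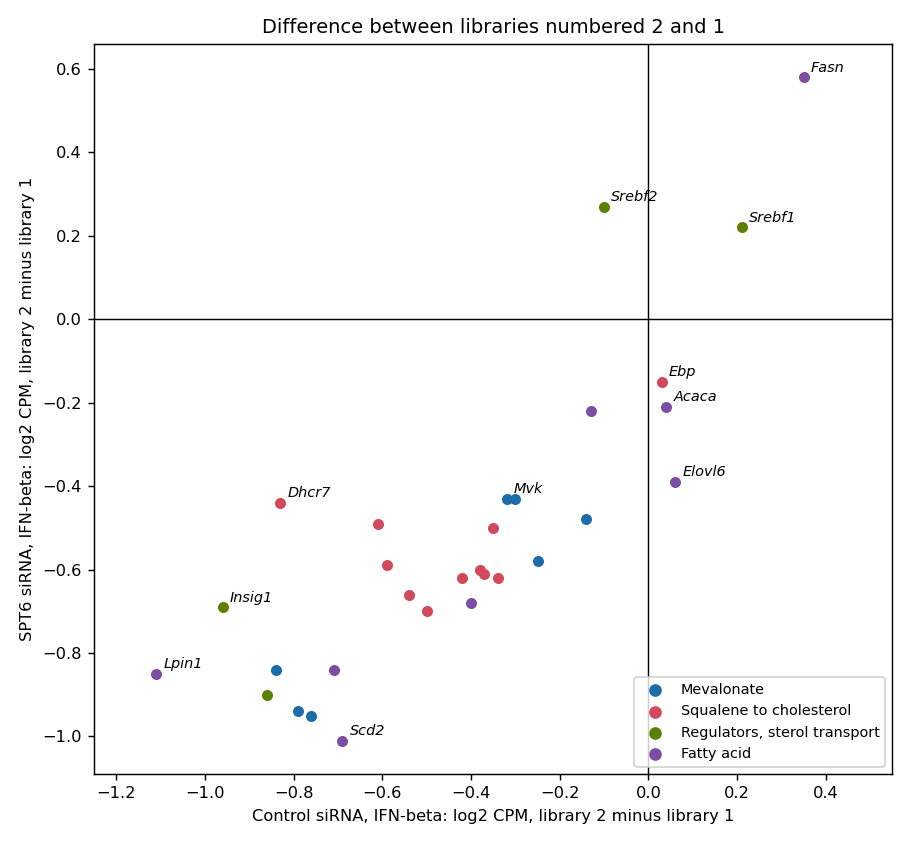
Log2 CPM of IFN-beta library 2 minus library 1 in control cells (horizontal axis) and in knockdown cells (vertical axis), 1 point per gene, coloured by role. Of the 30 points, 24 lie below and left of 0, and Fasn and Srebf1 lie above and right of it.

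Genes that act on SREBPs had values on both sides of 0. Of the 7, 3 stood higher in knockdown cells in all 3 pairs, against 25.8% of all genes, and 1 lower, against 28.3%. The median log2 difference with IFN-beta was 0.14. Insig2, the INSIG protein whose gene is less tied to SREBP than Insig1, was at 41.3 CPM in control cells and 57.4 CPM in knockdown cells without IFN-beta. Given IFN-beta, it was at 28 and 21.9 CPM in control cells and at 53.8 and 43.1 CPM in knockdown cells, without overlap. The log2 difference was 0.96 ± 0.22 (edgeR adjusted p = 0.302), and the response to IFN-beta in control cells was -0.73 ± 0.26 (edgeR adjusted p = 0.537). Rnf145 and Mbtps2 had log2 differences of -0.20 ± 0.17 and 0.22 ± 0.24.

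Cholesterol 25-hydroxylase, Ch25h, makes 25-hydroxycholesterol and is known as an interferon target in macrophages. It had 0 counts in all 6 libraries, as did Cyp7b1 (named after its values were seen), and a count of 0 allows up to 3 counts, or 0.178 to 0.36 CPM by library. Of the 13 genes listed for oxysterols, LXR receptors and sterol handling, 8 were tested. Of these 8, 4 stood higher in knockdown cells in all 3 pairs, against 25.8% of all genes, and 0 lower, against 28.3%. With IFN-beta, Npc1, which exports cholesterol from lysosomes, was at 40.3 and 45.6 CPM in control cells and 51.5 and 73.3 CPM in knockdown cells (0.54 ± 0.22, edgeR adjusted p = 0.425). Lpcat3, Npc2 and Lipa had log2 differences of 0.41 ± 0.18, 0.36 ± 0.26 and 0.34 ± 0.25. Soat1, which esterifies cholesterol for storage, was at 103 CPM in the untreated control library and at 277 and 335 CPM in the IFN-beta control libraries (1.57 ± 0.25, edgeR adjusted p = 0.139). In knockdown cells the untreated library was at 122 CPM and the IFN-beta libraries at 271 and 323 CPM (1.29 ± 0.25, edgeR adjusted p = 0.33). Both IFN-beta libraries lay above the untreated one with either siRNA, and neither response passed the adjusted threshold.

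A list of 17 other lipid synthesis genes was compared with the 30. Of the 17, 11 stood lower in knockdown cells in all 3 pairs, against 28.3% of all genes, and 2 higher, against 25.8%. With IFN-beta, 14 of 17 log2 differences were below 0, against 52% of all genes, with a median of -0.30. Both IFN-beta knockdown libraries lay below both control libraries for 12 of the 17, against 21.3% of all genes. Mid1ip1, an activator of acetyl-CoA carboxylase, was at 16.5 and 18.2 CPM in control cells and 11.6 and 9.39 CPM in knockdown cells (-0.72 ± 0.23, edgeR adjusted p = 0.359). Lbr, a nuclear envelope protein with sterol reductase activity, was at 157 and 200 CPM against 138 and 135 CPM (-0.39 ± 0.18). Hacd3, a dehydratase of very long chain fatty acid synthesis, was at 80.8 and 74.3 CPM against 106 and 93.9 CPM (0.37 ± 0.17). None of the 17 passed an adjusted p of 0.05 (edgeR), and 1 was lower, against 4.31% of all genes, and 0 higher, against 7.36%, at an unadjusted p under 0.05.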

How the data were processed

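RNA selection, the annotation and the counting mode are not given in the sources used here. Builds mm10 and GRCm38 and the tools TopHat2 (2.1.0), DESeq2 and HTSeq (0.6.1p1) are listed, with no role, in the notes on processing by the submitters. The authors deposited raw counts per gene for each library. The 5 lines that name no gene were left out, and 32.9% to 38% of all counts were in genes. The 30 genes and all lists were chosen with earlier results of these data known, so shares of all genes beside their counts are descriptions only. Named genes are the 30, Supt6, Ch25h and up to 4 genes of each further list with the smallest p in the comparison being described, of which some are not reported here. Hacd3 and Adgre1 were found under older symbols.

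Counts were filtered (edgeR 4.0.16, filterByExpr, count minimum 10, 13185 genes), scaled by TMM and fitted with 4 group means over all 6 libraries by edgeR's robust quasi-likelihood test in R 4.3.3, with 2 residual degrees of freedom. Each lone untreated library is assumed to vary like the replicated groups. Adjusted p-values are Benjamini-Hochberg over all genes in each of 4 comparisons, and called means under 0.05. An SE is the log2 difference divided by the root of F. Pair differences are log2 CPM with a prior count of 2. Libraries of a group differed by more than sampling noise (chi-square per degree of freedom 39.4 and 34.7). The script was tested on simulated data. Alternatives were other size factors, library size only, no filter, DESeq2 1.42.0, a replicate block and leaving out each IFN-beta library. Leaving out a pair was added after seeing the data. Gene positions are from GENCODE on GRCm38, promoters from RefSeq on GRCm38.p6.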

Additional observations from a re-analysis of the deposited data

How the results depend on the processing

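With 2 IFN-beta libraries and 1 untreated library per siRNA, the fit has 2 residual degrees of freedom, and no member passed the adjusted threshold with edgeR or DESeq2 in any of the 4 tested comparisons, with every library in or with 1 left out, in the fits without a replicate block. For SPT6 siRNA against control siRNA with IFN-beta, the 5 members lower at an unadjusted p under 0.05 became 9 with no filter on low counts and 10 with DESeq2. Leaving out 1 replicate gave 1 to 18 members and a median of -0.79 to -0.25. The same range was 0 to 5 members and -0.47 to -0.11 for the response with control siRNA, 1 to 11 members and -0.69 to -0.14 with SPT6 siRNA, and 0 to 1 members and -0.43 to 0.19 for the difference of the responses. The count of 27 members lower in all 3 pairs was the same under each scaling, and 28, 27 and 27 when the untreated pair, the pair numbered 1 or the pair numbered 2 was left out, against 36.5%, 36.9% and 35.7% of all genes. The cause of these shifts was not tested.

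The number 1 runs through all 4 groups, but deviations from a group mean can be taken only in the IFN-beta groups, with fewer than the 3 pairs needed to check a pairing. The labels do not say that the numbers mark a shared culture. The deviations of same-numbered libraries from their group means had a correlation of 0.56 over 13185 genes and 0.82 over the 30. With a replicate block, 16 members passed the adjusted threshold for SPT6 siRNA against control siRNA with IFN-beta, and 23 were lower at an unadjusted p under 0.05. Of all genes, 9.91% passed on the lower side and 16.4% were lower at an unadjusted p. The block used up a degree of freedom, so this fit had fewer than the 2 residual ones of the main fit. A fit with the 3 pairs as the block gave a single siRNA difference over the untreated pair and both IFN-beta pairs. That is a different quantity from the difference with IFN-beta alone. In that fit, 22 members passed (12.7% of all genes, lower side) and 25 were lower at an unadjusted p under 0.05 (19% of all genes). With the replicate block, 1 member (Dhcr7) passed for the response with control siRNA, with 3 lower at an unadjusted p, against 2.43% and 8.66% of all genes, and 3 (Dhcr7, Mvd and Mvk) with SPT6 siRNA, with 4 lower, against 1.18% and 6.51%. For the difference of the responses, 1 was lower at an unadjusted p, against 1.81%.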

Other observations

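Fatty acid oxidation, the pathway that breaks down what the fatty acid arm makes, had a median log2 difference of 0.22 with IFN-beta. The values of its 9 tested genes ran from 0 to 0.72. Of the 9, 5 stood higher in knockdown cells in all 3 pairs, against 25.8% of all genes, and 0 lower, against 28.3%. Cpt1a, which admits fatty acids to mitochondria, was at 156 and 128 CPM in IFN-beta treated control cells against 201 and 178 CPM in knockdown cells (0.41 ± 0.18), and Hadhb, a subunit of the mitochondrial trifunctional protein, at 97.3 and 88.4 CPM against 128 and 113 CPM (0.38 ± 0.17). None of the 9 passed an adjusted p of 0.05 (edgeR), and 1 was higher at an unadjusted p under 0.05, against 7.36% of all genes.

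The 10 genes that take isoprenoids away from sterol synthesis, towards protein prenylation, dolichol and ubiquinone, had a median log2 difference of 0.10 with IFN-beta, with 5 values on each side of 0. Ggps1, which makes geranylgeranyl pyrophosphate from the product of Fdps, was at 24.5 and 26.5 CPM in control cells and 36.3 and 38.1 CPM in knockdown cells (0.54 ± 0.18, edgeR adjusted p = 0.367), where Fdps stood lower in the same libraries. Pdss1, of the ubiquinone branch, was at 12.1 and 13.1 CPM against 9.79 and 9.74 CPM (-0.37 ± 0.23). Abca1, a cholesterol exporter named after its values were seen, was at 20.7 and 4.1 CPM in control cells and 26.4 and 2.09 CPM in knockdown cells under IFN-beta, lower in both libraries numbered 2.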
